A study of Mus musculus with 6 samples.

Results

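The 9 genes described here encode the pore-forming subunits of mouse AMPA and kainate receptors. They were taken by symbol from the 32371 identifiers of the count table, 4 AMPA receptor subunits (Gria1, Gria2, Gria3 and Gria4) and 5 kainate receptor subunits (Grik1, Grik2, Grik3, Grik4 and Grik5), and all 9 were among the 18138 genes that passed the filter on low counts. RNA-Seq was performed on cells of adult C57BL/6J mice of both sexes, 3 libraries after intravitreal injection of AAV2-GFP and 3 after AAV2-Ezh2-Y726D. Ezh2-Y726D is a mutant of Ezh2, the histone methyltransferase of the Polycomb repressive complex, without catalytic activity. All mice had an optic nerve crush (ONC) 2 weeks after the injection, and 3 days later dissociated retinal cells bearing CD90.2, which Thy1 encodes, were sorted to enrich retinal ganglion cells (RGCs). Whether each library came from a separate mouse is not stated in the sources used here, so P values measure only the spread between these libraries. The comparison asks how the mutant, which cannot add the histone mark, alters the transcriptome of injured retinal cells.

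AMPA and kainate receptors are glutamate-gated cation channels, each built as a tetramer of subunits. AMPA receptors carry most fast excitatory transmission, and Gria2 encodes the subunit whose edited form keeps the channel nearly impermeable to calcium. Of the kainate receptor subunits, those of Grik1, Grik2 and Grik3 form channels by themselves, whereas those of Grik4 and Grik5 need one of these as a partner. In the retina, photoreceptors and bipolar cells release glutamate. OFF bipolar cells read the photoreceptor signal through AMPA and kainate receptors, and amacrine cells and RGCs receive bipolar cell input largely through AMPA receptors.

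Total counts ran from 9333244 to 22370285 in the GFP libraries and from 18215734 to 23782520 in the Ezh2-Y726D libraries. An rRNA gene, CT010467.1, took 6.59%, 50.9% and 52.2% of them in the GFP libraries and 2.55%, 16.1% and 7.39% in the Ezh2-Y726D libraries. Without it, GFP replicates 2 and 3 held 5745352 and 4460732 counts and the other 4 libraries 15280377 to 22024582, so these GFP libraries measured the subunits with the least precision. Ezh2 was at 22.7, 23.9 and 26.4 CPM, the counts scaled to the size of the library by TMM, in the GFP libraries (the controls) and at 65.2, 65.6 and 65.2 CPM after Ezh2-Y726D, as the labels state, although the counts cannot separate vector from endogenous transcripts. The label names the cells as RGCs, but transcripts of other retinal cells were abundant. Per kilobase of exon (RPKM), the RGC marker Rbpms was at 2.34 ± 0.216 (SD, n = 3) and Thy1 at 35.2 ± 1.85 in the GFP libraries, whereas Gnat1, the transducin of rods, was at 312 ± 9.50 and Glul, the glutamine synthetase of Müller glia, at 895 ± 14.4. Markers of 1 cell type spread widely, with Nefl of RGCs at 42.8, Nrl of rods at 23.4 and Kcnj10 of Müller glia at 15.3 RPKM in these libraries. Because transcripts of other retinal cells were present, the samples are called CD90.2-sorted retinal cells here.

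Of the 9 subunits, 7 rose, 1 fell and 1 did not pass the test after Ezh2-Y726D. The quasi-likelihood test of edgeR, adjusted by Benjamini-Hochberg over 18138 genes and read at an adjusted P under 0.05, called 27.9% of all genes, 14.1% as higher and 13.8% as lower. The median log2 fold change was 0.50 for the subunits and 0.00 for all genes tested. Grik2 (1.97-fold higher), Gria3 (1.56-fold higher) and Grik1 (1.66-fold lower) also passed a fold change of 1.5 and are called differentially expressed genes (DEGs), as were 8.04% of all genes. The 3 Ezh2-Y726D values lay outside the range of the 3 GFP values for all 9 subunits, as they did for 38.6% of all genes tested. In bulk samples such as these, fewer cells of a type and less RNA per cell cannot be told apart. An exact 2-sided permutation test of 3 libraries against 3 cannot go below 0.1, so every call depends on the variances edgeR shares among genes.

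**Figure D1:**
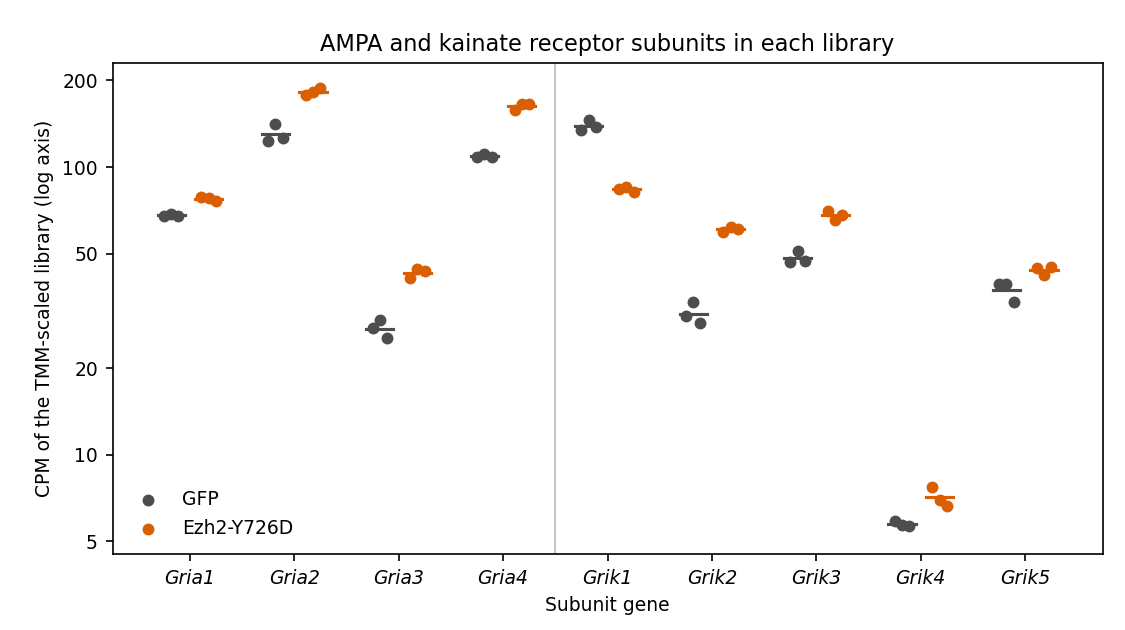
Level of each AMPA and kainate receptor subunit in CPM of the TMM-scaled library, 1 point per library and a bar at the mean of each group of 3. Grik1 was the subunit whose Ezh2-Y726D libraries all lay below the GFP libraries, and Grik2 had the largest fold rise.

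All 4 AMPA receptor subunits rose, and their summed level went from 327 to 349 CPM in the GFP libraries to 455 to 475 CPM in the Ezh2-Y726D libraries. Gria2 (ENSMUSG00000033981, chr3:80681450-80802835, minus strand) was at 124, 141 and 126 CPM in the controls, against 177, 182 and 189 CPM after Ezh2-Y726D. GFP replicate 2 was the highest of the controls and still below every Ezh2-Y726D library. Its log2 fold change was 0.50 (SE 0.043, edgeR adjusted P = 1.38e-12).

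Gria3 (ENSMUSG00000001986, chrX:41400854-41678601, plus strand), the least abundant AMPA receptor subunit here, was at 27.5, 29.3 and 25.4 CPM in the controls. After Ezh2-Y726D it was at 41.1, 44.4 and 43.4 CPM, with no overlap between the groups. Its log2 fold change of 0.64 (SE 0.064, edgeR adjusted P = 6.41e-11) was the largest among the AMPA receptor subunits. With every library thinned to the depth of the shallowest it was 0.53 and no longer reached the DEG threshold. Gria4 (ENSMUSG00000025892, chr9:4417896-4796234, minus strand), whose product forms channels with fast kinetics, was nearly constant within the GFP group at 109, 111 and 108 CPM. It stood at 158, 165 and 166 CPM after Ezh2-Y726D, all well above the controls. The log2 fold change was 0.58 (SE 0.041, edgeR adjusted P = 4.21e-15), a fold change of 1.49 that lay just under the DEG threshold. Gria4 passed that threshold without Ezh2-Y726D replicate 1 (log2 fold change 0.60) and without GFP replicate 2 (0.59).

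Gria1 (ENSMUSG00000020524, chr11:57011387-57330244, plus strand), the subunit known for its activity-dependent insertion into synapses, moved least. Its values were 67.4, 68.8 and 67.5 CPM in the controls and 78.5, 78.1 and 76.1 CPM after Ezh2-Y726D. Although small, the gap between the groups was wider than either group, and the log2 fold change was 0.19 (SE 0.048, edgeR adjusted P = 0.00157). With every library thinned to the depth of the shallowest, Gria1 no longer passed the edgeR test (log2 fold change 0.16, adjusted P = 0.0818).

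The kainate receptor subunits moved in both directions, so that their summed level was similar in the groups, 253 to 275 CPM in the GFP libraries and 262 to 266 CPM in the Ezh2-Y726D libraries. Grik1 (ENSMUSG00000022935, chr16:87895900-88290265, minus strand), which encodes the subunit GluK1 found on OFF bipolar cells, was the one subunit that fell. It was at 134, 145 and 138 CPM in the controls, against 83.7, 85.4 and 81.9 CPM after Ezh2-Y726D. Every control library was thus far above every Ezh2-Y726D library. The log2 fold change was -0.73 (SE 0.043, edgeR adjusted P = 2.15e-17).

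Grik2 (ENSMUSG00000056073, chr10:49094833-49788766, minus strand) encodes GluK2, the subunit of many kainate receptors of the brain, and rose most. Its level was 30.2, 33.9 and 28.7 CPM in the controls and 59.6, 61.8 and 61.1 CPM after Ezh2-Y726D. The lowest Ezh2-Y726D library was far above the highest control. The log2 fold change was 0.98 (SE 0.060, edgeR adjusted P = 6.78e-17). Grik3 (ENSMUSG00000001985, chr4:125490700-125714173, plus strand), the third subunit that can form channels without a partner, was at 46.7, 51.0 and 47.1 CPM in the controls, against 70.4, 65.5 and 67.9 CPM after Ezh2-Y726D. These groups were again apart, with a log2 fold change of 0.51 (SE 0.054, edgeR adjusted P = 3.98e-10).

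Of the subunits that need a partner, Grik5 passed the test and Grik4 did not. Grik5 (ENSMUSG00000003378, chr7:25009849-25072346, minus strand) was at 39.4, 39.2 and 33.8 CPM in the controls, against 44.4, 42.1 and 44.8 CPM after Ezh2-Y726D. GFP replicate 3 was low among the controls, and the other 2 controls lay close to the lowest Ezh2-Y726D library. The log2 fold change was 0.20 (SE 0.061, edgeR adjusted P = 0.00978), and without GFP replicate 3 it was 0.16 and was not called (edgeR adjusted P = 0.0610). Grik4 (ENSMUSG00000032017, chr9:42518135-42944493, minus strand) was the scarcest subunit, with 34 to 167 counts in the GFP libraries and 142 to 206 in the Ezh2-Y726D libraries. Its values of 5.86, 5.68 and 5.64 CPM against 7.74, 6.96 and 6.64 CPM gave a log2 fold change of 0.30 (SE 0.127, edgeR adjusted P = 0.0743), which did not pass. With the replicate number added to the model the log2 fold change was 0.34 and Grik4 was called higher (edgeR adjusted P = 0.0385). The main P does not show that Grik4 was stable.

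All 9 are annotated as protein-coding in GENCODE vM21, from which the GRCm38 coordinates were taken. At most 0.99% of the exonic bases of any subunit overlapped another annotated gene, and whether the counting used the strand is not given in the sources used here. The scaling of the libraries set how far all genes moved together. With library totals in place of TMM factors, the median of all genes shifted to a log2 fold change of 0.49. Under that scaling Grik1 was at -0.22 and the other 8 subunits were above 0, with Grik2 at 1.48 (edgeR adjusted P = 0.0425) the one subunit still called. With library totals without the rRNA gene CT010467.1, 7 subunits were called higher and 1 lower, as with TMM.

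RefSeq promoter sequence on GRCm38 was matched for 6 of the subunits. The window of Grik4 was not used, because the bases after its start were not found in the GENCODE transcripts of the gene. The sequence is printed for 3 of the other 5, all of which rose, Gria2, Gria4 and Grik2, chosen after their values were seen, with the others summarised after them. Each run is the 250 bases before the annotated start, on the minus strand and written 5′ to 3′, with CpG dinucleotides in capitals because these are the bases at which promoters are methylated and at which CpG islands are recognised. The window of Grik2 reaches a few bases into the gene as GENCODE annotates it. The windows are chr3:80802836-80803085 for Gria2, chr9:4796235-4796484 for Gria4 and chr10:49788755-49789004 for Grik2.
Gria2: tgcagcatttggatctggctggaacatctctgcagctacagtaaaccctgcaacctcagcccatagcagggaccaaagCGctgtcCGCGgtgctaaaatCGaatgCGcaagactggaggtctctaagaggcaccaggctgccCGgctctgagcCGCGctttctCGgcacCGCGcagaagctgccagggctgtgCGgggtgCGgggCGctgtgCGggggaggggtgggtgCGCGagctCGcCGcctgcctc
Gria4: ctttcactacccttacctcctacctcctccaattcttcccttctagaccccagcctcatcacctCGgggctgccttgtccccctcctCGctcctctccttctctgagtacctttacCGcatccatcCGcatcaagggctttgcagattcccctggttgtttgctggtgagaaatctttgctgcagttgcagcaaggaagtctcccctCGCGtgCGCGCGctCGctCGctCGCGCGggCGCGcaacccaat
Grik2: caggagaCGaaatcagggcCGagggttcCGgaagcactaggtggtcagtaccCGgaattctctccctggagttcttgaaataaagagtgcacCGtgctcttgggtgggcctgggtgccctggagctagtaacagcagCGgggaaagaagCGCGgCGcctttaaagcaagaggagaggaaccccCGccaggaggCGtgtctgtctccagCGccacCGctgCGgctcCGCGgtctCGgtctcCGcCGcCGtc

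These windows held 19, 16 and 20 CpGs in Gria2, Gria4 and Grik2, against a median of 6 over 32851 RefSeq promoters of the same length. Of all promoters, 80.3%, 74.6% and 82.1% had fewer CpGs than those of Gria2, Gria4 and Grik2. The windows of Grik3 and Grik5 held 42 and 8 CpGs, and 99.1% and 57.0% of all promoters had fewer, so these 5 windows did not share a CpG content. No promoter was matched for Gria1 and Gria3, which rose, or for Grik1, the one subunit that fell. The GC box GGGCGG, searched on both strands and in 32.7% of all promoters, was absent from the windows of Gria2, Gria4 and Grik2 but occurred 6 times in Grik3 and 2 times in Grik5. The TATA motif TATAAA, searched likewise and in 12.4% of all promoters, was in none of the 5. The E-box CANNTG, in 66.2% of all promoters, occurred once each in Gria2, Gria4 and Grik3. Chromatin and DNA methylation at these windows were not analysed here.

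To compare levels between genes, CPM was divided by the length of the annotated exons in kilobases (RPKM). In the GFP libraries Grik1 was the most abundant subunit with a mean of 20.7 RPKM, followed by Gria4 with 17.3, Gria1 with 11.2, Gria2 with 8.37 and Grik5 with 7.25 RPKM. Grik3 at 5.38, Gria3 at 2.78, Grik2 at 2.34 and Grik4 at 0.960 RPKM made up the lower part of the order, and Gria3 and Grik2 nearly touched. The GFP level of Grik1 was above that of 91.8% of the genes tested, and that of Grik4 above 22.6%.

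In the Ezh2-Y726D libraries the order changed at the top. Gria4 led with 25.9 RPKM, and Gria1 at 12.8, Grik1 at 12.4 and Gria2 at 11.8 RPKM lay close together, with the library values of Gria1 and Grik1 overlapping. Grik2 had passed Gria3, at 4.60 against 4.36 RPKM. These orders depend on the length used, since the annotated exons of Gria2 span 15.548 kb and its coding sequence 2.804 kb. Per kilobase of coding sequence, a scaling added after the data were seen, Gria2 and Grik1 were equal at 46.4 in the GFP libraries. Gria2 led in the Ezh2-Y726D libraries with 65.2 against 57.2 for Gria4 and 27.9 for Grik1. On that scale Grik2 was above Gria3 already in the GFP libraries, at 10.5 against 9.85.

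The make-up of each family was computed as the share of a subunit in the summed RPKM of its family in each library. Grik1 took 55.4%, 56.3% and 57.9% of the kainate receptor subunit level in the GFP libraries and 35.9%, 37.4% and 35.7% in the Ezh2-Y726D libraries, a difference of -20.2 percentage points. Grik2 went from 6.33%, 6.67% and 6.12% to 12.98%, 13.7% and 13.5%. Thus the share of Grik1 was lower and that of Grik2 higher in every Ezh2-Y726D library than in any control. The mean shares of Grik3 (14.7% to 22.1%), Grik5 (19.8% to 24.7%) and Grik4 (2.63% to 3.48%) were also higher, without overlap of the groups. The size of these differences depended on the length used. Per coding length the difference was 11.1 points for Grik2 in place of 7.03, 2.08 for Grik5 in place of 4.92 and 0.501 for Grik4 in place of 0.854. Shares within a family sum to the whole, so that a lower share of Grik1 raises the others by construction.

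**Figure D2:**
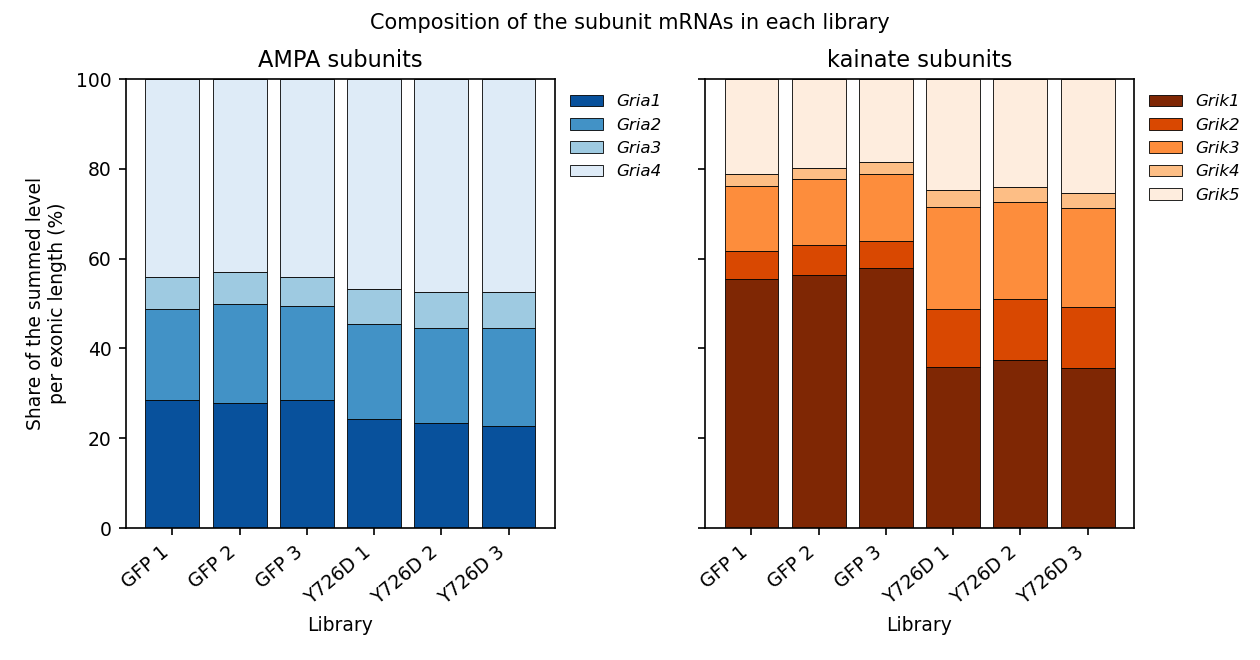
Share of each subunit in the summed RPKM of its family, in percent, for the AMPA and the kainate receptor subunits in each library. Grik1 fell from a mean of 56.5% to 36.3% of the kainate family, whereas Gria4 was the largest member of the AMPA family on this length scale in both groups.

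The AMPA family shifted less. On this scale Gria4 was its largest member, with a mean share of 43.6% ± 0.676 (SD, n = 3) in the GFP libraries and 47.2% ± 0.436 in the Ezh2-Y726D libraries. Per coding length Gria2 was the largest instead, with mean shares of 39.1% and 39.5% against 32.3% and 34.6% for Gria4. The share of Gria1 was 28.3% ± 0.449 and 23.4% ± 0.781, and that of Gria3 6.99% ± 0.350 and 7.95% ± 0.173, again without overlap. The share of Gria2 was 21.1% ± 0.925 and 21.4% ± 0.403 with overlapping libraries, and its difference of 0.375 percentage points was within the spread. In an exact 2-sided permutation test over the 20 assignments of the libraries, none of the 9 shares could reach a P under 0.1.

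AMPA receptors are assembled with auxiliary subunits that set their gating and carry them to the synapse. Of 13 such genes, all tested, 10 rose and none fell, where 14.1% of all genes rose and 13.8% fell, with a median log2 fold change of 0.49. Cnih3, a cornichon that slows channel closure, was at 4.35, 4.26 and 4.31 CPM in the controls, against 8.83, 7.74 and 8.61 CPM after Ezh2-Y726D. Its log2 fold change of 0.96 (SE 0.130, edgeR adjusted P = 9.13e-08) was the largest rise among the 54 pathway genes listed. Cacng5, a transmembrane AMPA receptor regulatory protein, was at 20.1, 20.6 and 20.1 CPM and at 34.1, 37.0 and 32.2 CPM, with a log2 fold change of 0.76 (SE 0.071, edgeR adjusted P = 8.72e-12). Its relatives Cacng2 (0.49), Cacng3 (0.54), Cacng4 (0.29) and Cacng7 (0.21) rose too. Cacng8 (0.50), Shisa6 (0.23) and Gsg1l (-0.18) did not pass.

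Kainate receptors have auxiliary subunits of their own, and neither of the 2 genes was called. Neto2, which slows desensitisation of kainate receptors, was at 74.3, 70.6 and 75.1 CPM in the controls, against 77.6, 79.8 and 82.1 CPM after Ezh2-Y726D (log2 fold change 0.12, edgeR adjusted P = 0.0551). Neto1 was at 5.05, 6.71 and 7.96 CPM and at 5.86, 5.98 and 4.91 CPM, with overlapping groups. Whether the change of the 2 kinds of auxiliary subunit differed was not tested.

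**Figure D3:**
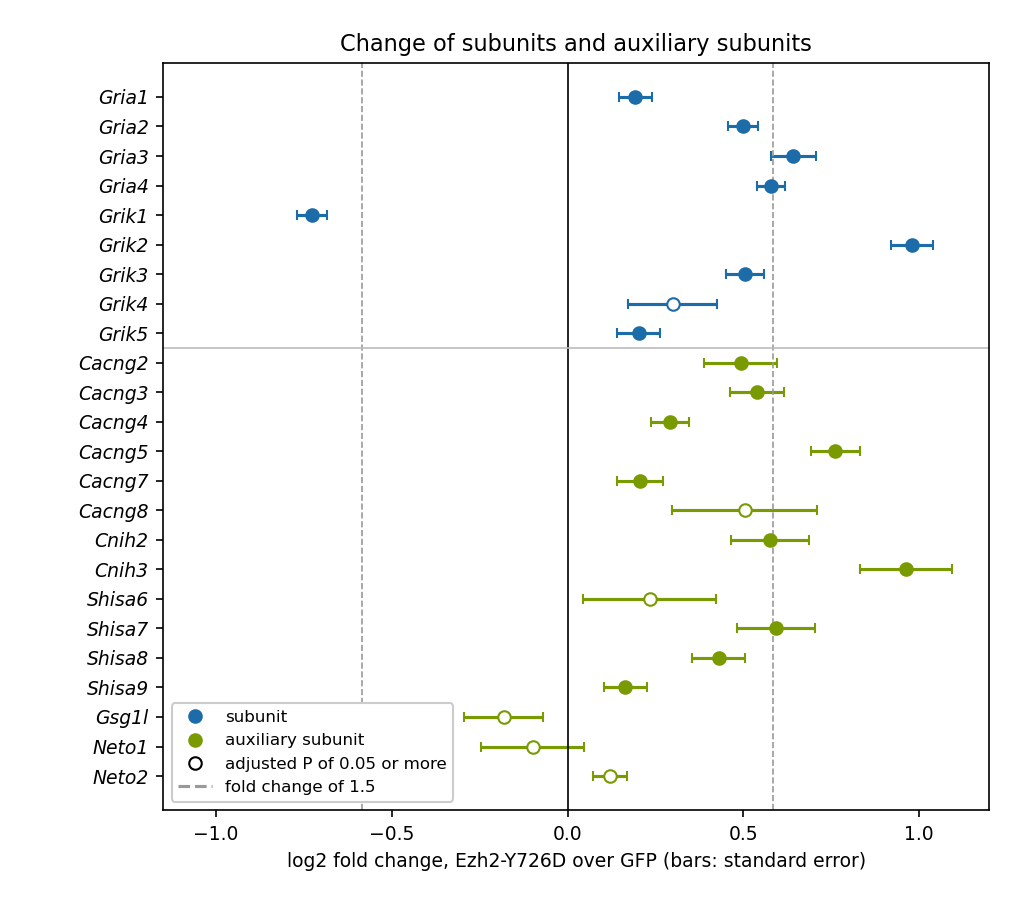
Log2 fold change of the 9 subunits and 15 auxiliary subunits, Ezh2-Y726D over GFP, with bars of 1 standard error from edgeR and dashed lines at a fold change of 1.5. Open symbols did not pass an adjusted P under 0.05, and Grik1 is the one called gene left of 0.

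Other genes that serve the receptors were higher or not called, beside 14.1% of all genes called as higher and 13.8% as lower. Of 9 genes for AMPA receptor assembly and associated proteins, 3 rose, among them Frrs1l (0.37), which acts in receptor biogenesis, and Olfm3 (0.53). Of 10 genes for trafficking and scaffolds 7 rose, among them Grip1 (0.41) and Grip2 (0.58), which bind the tail of AMPA receptor subunits, and Dlg2 (0.42), a synaptic scaffold. Dlg4, the postsynaptic scaffold PSD-95, was at a log2 fold change of 0.13 and was called as higher. Of 9 synaptic organisers 5 rose, with Lrrtm1 (0.71) and Nptxr (0.64), the neuronal pentraxin receptor, past the DEG threshold. None of these 28 genes was called as lower.

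Adarb1 encodes the enzyme that edits the transcripts of Gria2, Grik1 and Grik2, among other RNAs. It was at 376, 375 and 337 CPM in the controls, against 525, 517 and 499.7 CPM after Ezh2-Y726D, with a log2 fold change of 0.50 (SE 0.040, edgeR adjusted P = 1.38e-13). Adarb2, a relative without known editing activity, was at 0.24 and called as higher, and Adar was at 0.00 and not called. Gene counts hold no measure of editing itself.

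Of the 8 genes of glutamate transport 3 rose and 3 fell, and these were the only pathway genes that fell. Slc1a7 (log2 fold change -0.32, edgeR adjusted P = 1.17e-04), a glutamate transporter of photoreceptors and bipolar cells, went from a mean of 38.6 to 31.9 CPM. Slc17a7 (-0.27, edgeR adjusted P = 1.07e-06), the vesicular transporter VGLUT1 of the same cells, went from 358 to 298 CPM, and Slc1a3 (-0.14, edgeR adjusted P = 0.00261), the transporter of Müller glia, from 653 to 593 CPM. In contrast, Slc1a6 (0.88, edgeR adjusted P = 1.45e-05) rose from 2.97 to 5.92 CPM, and the neuronal transporter Slc1a1 (0.72) and Slc17a8 (0.42) rose as well. Over all 54 genes 30 rose and 3 fell, beside 14.1% and 13.8% of all genes tested, with a median log2 fold change of 0.24.

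Markers of retinal cell types moved in both directions, and their counts stand beside 14.1% of all genes that rose and 13.8% that fell. Of 12 amacrine cell markers 10 were tested and 9 rose, with a median log2 fold change of 0.53 and a summed level of 1590 to 1724 CPM in the GFP libraries and 2437 to 2519 CPM in the Ezh2-Y726D libraries. Gad1, the enzyme that makes GABA, was at a log2 fold change of 0.69, and the cholinergic markers Chat and Slc18a3 were too low to be tested. Of 11 bipolar cell markers 9 fell and 2 rose, with a median of -0.40 and sums of 1101 to 1115 and 895 to 919 CPM. Vsx1 (-0.74) and Tacr3 (0.35), both used as markers of OFF bipolar cells, moved in opposite directions. Prkca (0.34), a marker of rod bipolar cells, rose, whereas Cabp5 (-0.61), Trpm1 (-0.38) and Pcp2 (-0.26) fell. All 7 cone markers fell, with a median of -0.64 and sums of 407 to 429 and 266 to 279 CPM.

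Of the 11 RGC markers 2 were higher, Thy1 (0.13) and Pou4f1 (0.41), and 1 was lower, Nrn1 (-0.22). Their median was -0.07, and their sums of 466 to 481 and 453 to 492 CPM overlapped. Single markers moved further than the median, among them Pou4f2 (-0.43) and Pou4f3 (-0.40), which were not called. Of 7 rod markers 3 rose, with a median of 0.08 and sums of 2254 to 2381 and 2294 to 2436 CPM that overlapped. Microglia (6 of 8 lower and 1, P2ry12, higher at 0.33, median -0.39, 752 to 842 and 488 to 572 CPM) and T cell markers (7 of 7 lower, median -0.76, 113 to 116 and 63.5 to 69.4 CPM) were mostly or all lower. Of the Müller glia and astrocyte markers 4 of the 7 tested were lower and 1, Kcnj10, was higher at 0.17 (median -0.09, 7933 to 8322 and 6579 to 6794 CPM). Apoe had the largest fall of this list, from a mean of 3099 to 1983 CPM, while Rlbp1 (-0.06) and Aqp4 (-0.04) were not called. Of 8 endothelial and pericyte markers 4 were lower (median -0.27, 938 to 991 and 831 to 884 CPM). Most of that sum was Kdr, at a mean of 763 CPM in the GFP libraries and 696 CPM after Ezh2-Y726D. Of the 3 oligodendrocyte lineage markers tested 1 was higher and 1 lower, while Olig1 and Olig2 had 0 counts in all GFP libraries, which allows up to 0.498 CPM in the shallowest, and of the 2 horizontal cell markers tested none was called. The part of these cell types in the changes of the subunits was not tested.

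**Figure D4:**
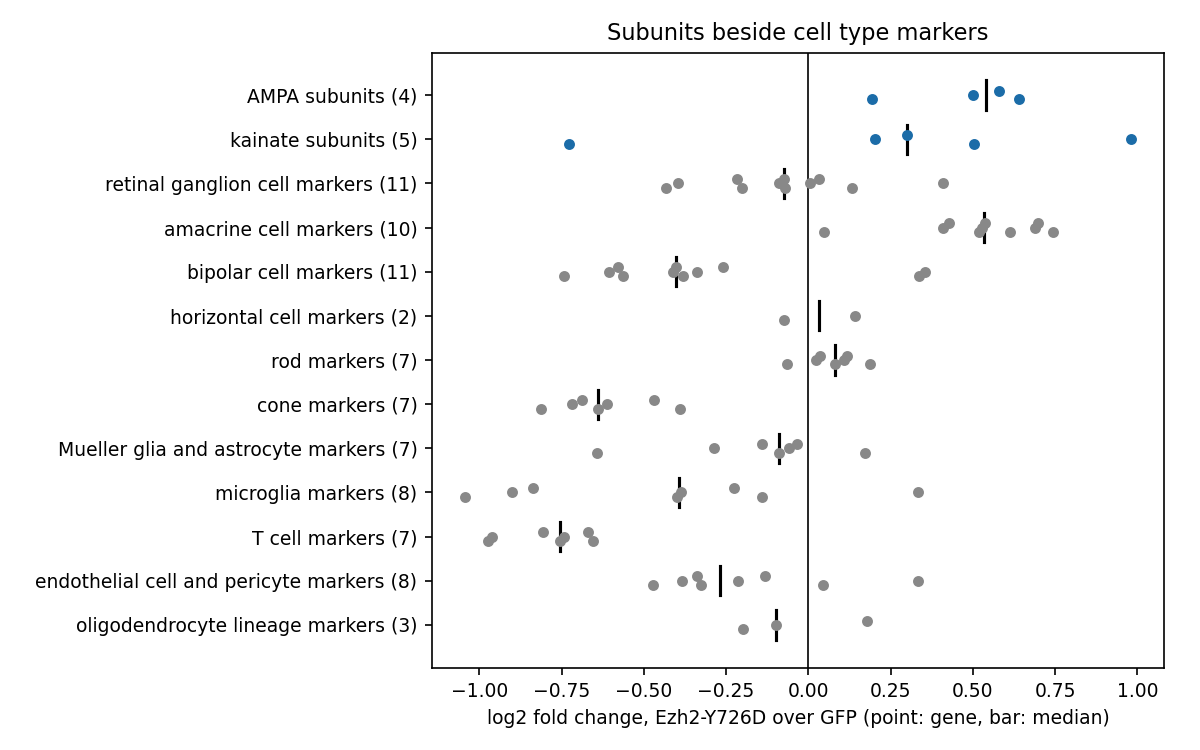
Log2 fold change of the subunits and of each tested cell type marker, 1 point per gene and a bar at the median of each list. The AMPA receptor subunits (median 0.54) lay in the range of the amacrine cell markers (median 0.53), and Grik1 (-0.73) lay in the range of the bipolar, cone, T cell and microglia markers.

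To show how the subunits stood beside these markers, the counts of each subunit were divided by the summed counts of the markers of 1 cell type in the same library, a measure chosen after the values above were seen. Per 100 counts of amacrine cell markers, Gria4 was equal in the groups (ratio of the means 1.00), and Gria2 (0.943), Gria3 (1.05) and Grik3 (0.945) had overlapping groups. Grik1 (0.404), Gria1 (0.766), Grik4 (0.834) and Grik5 (0.787) were lower in all Ezh2-Y726D libraries on this measure. Grik2 was the one subunit that remained higher, at 1.75, 1.99 and 1.80 in the GFP libraries and 2.37, 2.46 and 2.51 in the Ezh2-Y726D libraries, a ratio of 1.32.

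Against the bipolar cell markers, Grik1 was still lower, at 12.2, 13.1 and 12.3 per 100 marker counts in the GFP libraries and 9.35, 9.50 and 8.91 in the Ezh2-Y726D libraries, a ratio of 0.737. The other 8 subunits were all higher without overlap on this measure, with ratios from 1.40 for Gria1 to 2.41 for Grik2. Against the RGC markers, whose own sums overlapped between the groups, the ratios were close to the fold changes, from 1.15 for Gria1 to 1.98 for Grik2 and 0.604 for Grik1, and no subunit overlapped between the groups.

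**Figure D5:**
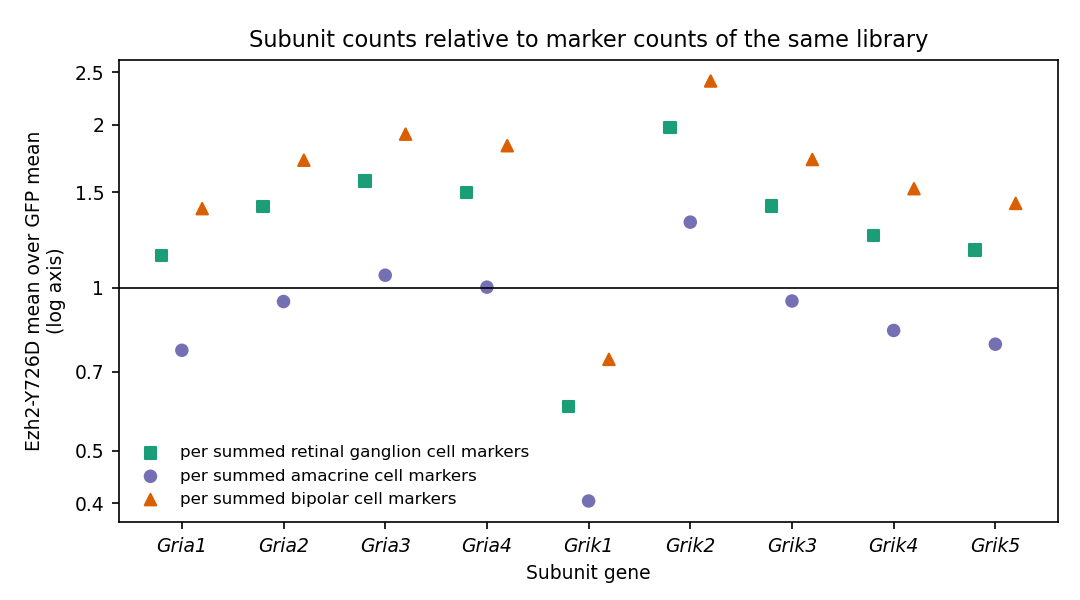
Ratio of Ezh2-Y726D to GFP for each subunit when its counts are expressed per 100 counts of amacrine, bipolar or RGC markers, on a log axis. Grik2 lay above 1 and Grik1 below 1 against all 3 marker lists, whereas Gria1 and Gria4 were at 0.766 and 1.00 against the amacrine cell markers.

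The genes most like Grik2 and Grik1 were sought by Pearson's correlation of log2 CPM over the 6 libraries among 16052 genes with a mean of at least 1 CPM. For Grik2 they were Cntnap2, Dlgap1 and Atp6v1a, each at r = 0.999 although their log2 fold changes were only 0.24, 0.43 and 0.22. For Grik1 they were Man2b1 (r = 1.00, log2 fold change -0.59), Dtx3l (0.999, -0.53) and Arhgap9 (0.998, -0.91). With 2 groups of 3 libraries, r mostly reflects the difference between the groups, and 5.54% of these genes had r over 0.95 with Grik2 and 5.59% with Grik1. These values are a description of 6 libraries that share their groups.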

How the data were processed

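RNA of CD90.2-sorted retinal cells was made into libraries with a kit for stranded total RNA, per the labels. The deposited values are whole read counts for each gene, not normalized by the authors. The submitters' processing notes name STAR 2.7.0d and GRCm38. The counting tool, annotation and strand setting are not given in the sources used here. The columns were assigned to samples by name.

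Counts were scaled by TMM and tested with edgeR 4.0.16 in R 4.3.3 (quasi-likelihood test, robust, filterByExpr with a minimum count of 10, Benjamini-Hochberg adjustment over 18138 genes). The SE was obtained by dividing the log2 fold change by the root of F. CPM values are edgeR's counts per TMM-scaled library, and RPKM used the union of exons in GENCODE vM21. Symbols were found for 32325 of 32371 identifiers. Library pairs of a group differed by more than counting noise (chi-square per degree of freedom 1.49 to 3.25), so no library duplicated another. This does not show that they came from separate mice. Precision of low genes was limited by the shallowest libraries.

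The subunits, pathway lists, marker lists and tests were chosen with earlier results of these data known. The named genes were the 9 subunits, Ezh2, genes of the pathway lists with the 3 largest called rises and falls, and the 3 genes most like Grik2 and Grik1. Alternatives were RLE size factors, library totals with and without CT010467.1, no filter, a minimum of 10 counts in each library, DESeq2 1.42.0, a replicate block, each library left out, thinned counts, and removal of the length trend. GFP replicate 1 as the only GFP library and coding length were added after seeing the data. Marker genes and other pathway genes printed as examples were chosen after their values were seen. 1 marker gene is not reported here and was left out of its list.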

Additional observations from a re-analysis of the deposited data

How the results depend on the processing

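Library totals moved the results most. With them the log2 fold changes were 0.70 for Gria1, 1.01 for Gria2, 1.14 for Gria3, 1.08 for Gria4, -0.22 for Grik1, 1.01 for Grik3 and 0.71 for Grik5, none of them called (edgeR adjusted P = 0.197 to 0.654). With these totals 1 subunit was called higher, 0 lower and 1 as a DEG, no pathway list gene (0 higher, 0 lower), and 42 genes higher and 18 lower of all genes, all of them DEGs, against 2565 and 2496 genes and 458 and 1000 DEGs with TMM. With library totals without CT010467.1 the median of all genes was -0.02. Thinned counts gave 0.16 for Gria1 (edgeR adjusted P = 0.0818). Higher DEGs numbered 291 with DESeq2 and 262 with at least 10 counts in every library. The thinned fit also took Gria3 under the DEG threshold (0.53, 2 subunit DEGs), and without a filter Gria4 passed it (0.59, 4 subunit DEGs). Under the remaining scalings, filters and corrections, the subunits kept their direction and side of the adjusted P threshold.

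Correlations of the deviations of same-numbered libraries were 0.142, 0.0482 and 0.0258, each the largest for its GFP library. Other pairs of a GFP and an Ezh2-Y726D library were at -0.0851 to 0.0405. The main test did not take the numbers as pairs, and whether they mark pairs cannot be told from these values. With a replicate block Grik4 was called higher (0.34, edgeR adjusted P = 0.0385), and no other subunit call changed. Leaving out 1 library in turn gave 0.16 to 0.25 for Grik5, which lost its call without GFP replicate 3 (0.16, edgeR adjusted P = 0.0610), and 0.18 to 0.21 for Gria1, 0.94 to 1.03 for Grik2 and -0.76 to -0.70 for Grik1. With GFP replicate 1 as the only GFP library, whose lone sample was assumed to vary like the other group, Grik5 was at 0.16 (edgeR adjusted P = 0.09997).

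Without length scaling the share differences in percentage points were -3.66 for Gria1, 2.31 for Gria4, -21.4 for Grik1, 11.3 for Grik2, 0.508 for Grik4 and 2.30 for Grik5. Per coding length they were -3.65, 2.28, -21.4, 11.1, 0.501 and 2.08. The share of Gria2 ranged from -0.00344 to 0.891 points with 1 library left out, and the negative value was without GFP replicate 1. The cause of these shifts was not tested beyond the settings themselves.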
